A study of Mus musculus with 9 samples.

Results

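The mouse genes for the Notch receptors (*Notch1* to *Notch4*), their ligands (*Jag1*, *Jag2*, *Dll1*, *Dll3* and *Dll4*) and the fringe enzyme *Lfng* were followed in tissue of the developing inner ear. They were chosen by gene symbol and not by a rule on their values, though with earlier results of these data known. All 10 genes were on the array, on 12 of its 25697 probes, since *Notch2* and *Notch4* had 2 probes each. All 9 samples were RNA from E10.5 embryos of the CD-1 strain, and the labels name no genetic change or treatment. The 3 groups of 3 arrays were OV (otic vesicles dissected free and pooled), periotic tissue (what surrounded the vesicle, which the methods describe as mesenchyme with adjoining neural tissue) and embryo-minus-otic (the remaining embryo once the ear region had been removed). Each array carried RNA pooled from several embryos, so the groups mixed cell types, and p-values measure the spread between pools.

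Notch is a receptor that passes signals between cells in contact. A ligand of the Delta-like or Jagged type on the neighbouring cell pulls on the receptor, an ADAM protease and then γ-secretase cut it, and the freed intracellular domain joins RBPJ and a Mastermind protein on DNA to switch on genes such as those of the *Hes* and *Hey* families. Fringe enzymes add a sugar to the receptor's EGF repeats and so alter how it responds to Delta-like and Jagged ligands. In the ear, Delta-like signalling limits how many cells leave the vesicle as neuroblasts, *Jag1* marks the future sensory patches, and *Lfng* is a classical marker of the neurogenic and sensory territory. *Notch4* and *Dll4* are best known from blood vessels, and *Dll3* from somites and newborn neurons.

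*Jag1* and *Lfng* were the members whose signal was higher in OV than in both other tissues. *Notch4* and *Dll3* were lower in OV than in both, and *Dll1* was higher in periotic tissue than in either of the others. *Notch1* was higher in OV and periotic tissue than in embryo-minus-otic, while *Notch3* passed no test. All values below are log2 intensities after quantile normalization over the 9 arrays, and each comparison was tested with limma, with *q* as the Benjamini-Hochberg adjusted p over all 25697 probes and *q* under 0.05 counted as a call. Signal depends on the probe as well as on the transcript, so levels were compared between tissues for a probe and never between probes.

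In OV against periotic tissue, 2 of the 12 member probes were higher (16.7%, against 5.07% of all probes) and 4 were lower (33.3%, against 5.15%). In OV against embryo-minus-otic, 3 were higher (25.0%, against 5.89%) and 2 were lower (16.7%, against 5.51%). In periotic tissue against embryo-minus-otic, 3 were higher (25.0%, against 2.86%) and 0 were lower, against 2.95% of all probes. The median log2 differences of the 12 probes were -0.08, -0.10 and 0.23 in these comparisons, beside medians of -3.7e-05, 0.0043 and 0.0066 over all probes. Each group enters 2 of the 3 comparisons, so they are not independent of each other. With few members the shares describe these probes alone. A deposited detection p-value under 0.01 was the limit for calling a signal above background, and 7 of the 12 probes reached it on every array of 1 tissue or more. The other 5 were both probes of *Notch2*, the dimmer probe of *Notch4*, *Jag2* and *Dll4*. Over the whole array 11849 probes reached it in this way, and calls were more frequent among them. Of these, 10.4% were higher and 10.6% lower in OV than in periotic tissue. Against embryo-minus-otic the shares were 12.1% and 11.1% for OV and 6.08% and 6.05% for periotic tissue. On each array 43.9% to 47.3% of all probes were above background, and the median deposited signal ran from 59.1 to 85.8, with both ends among the embryo-minus-otic arrays.

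**Figure D1:**
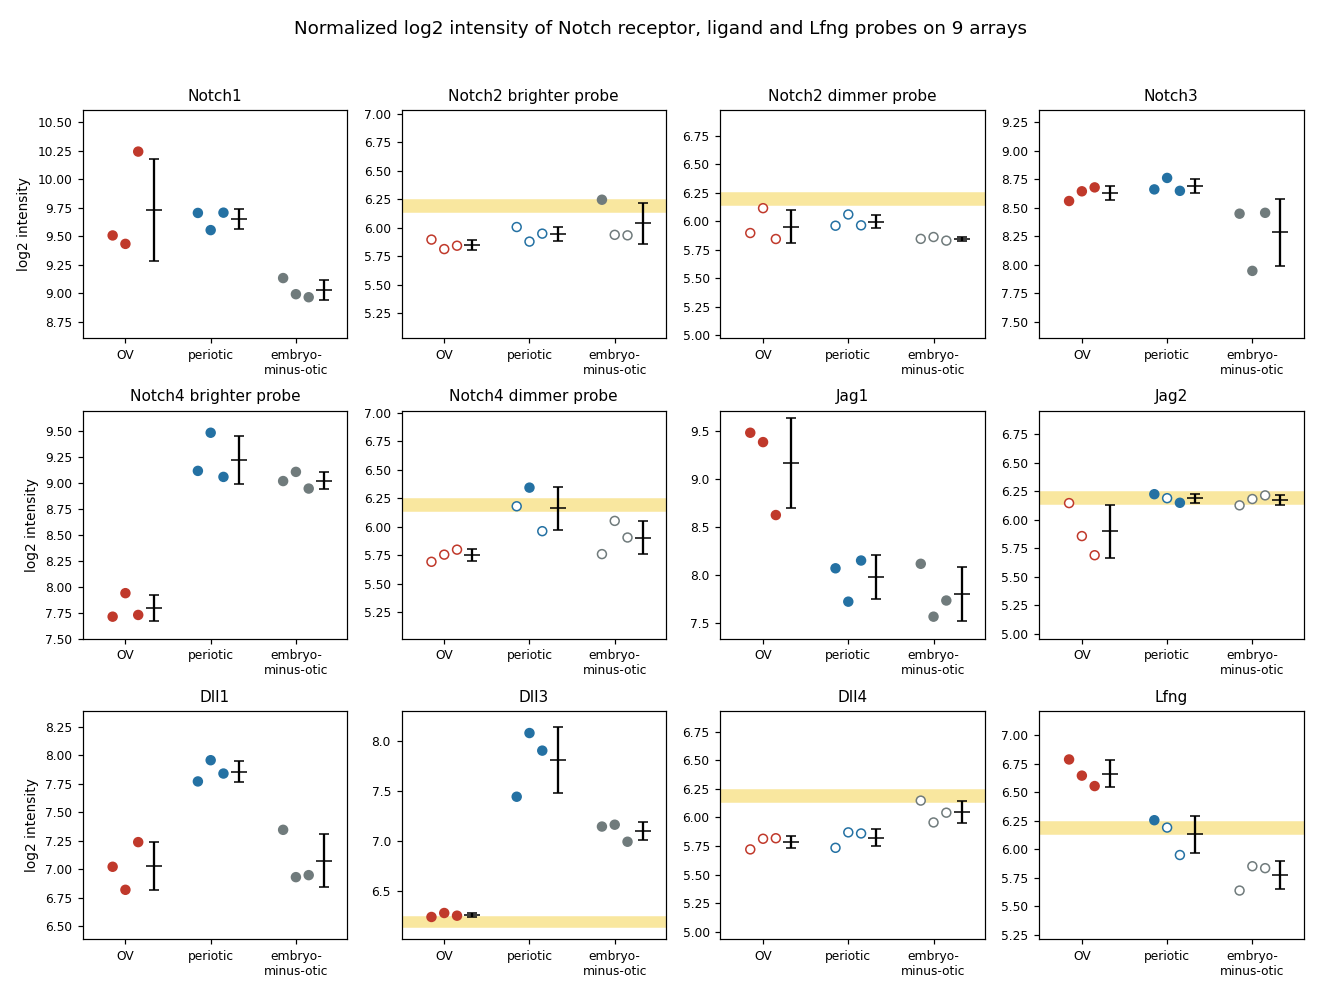
Normalized log2 intensity (y axis) of each of the 12 member probes on the 9 arrays, by tissue, with each group's mean and SD as bars. Filled points were above background on that array and open points were not, and the yellow band is the range over the arrays of the lowest log2 intensity above background. The 3 OV arrays lie above all the others for *Jag1* and *Lfng* and below all the others for *Notch4* (brighter probe) and *Dll3*.

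*Notch1*, on chromosome 2, encodes the receptor most broadly used in the embryo. Its signal was 9.51, 9.43 and 10.24 on the OV arrays, 9.71, 9.55 and 9.71 on the periotic arrays and 9.13, 8.99 and 8.97 on the embryo-minus-otic arrays. Every OV and periotic array was above every embryo-minus-otic array, and OV and periotic arrays overlapped. The mean was 1.62-fold higher in OV than in embryo-minus-otic (log2 difference 0.70, SE 0.16, *q* = 0.0082) and 1.54-fold higher in periotic tissue than in embryo-minus-otic (0.62, *q* = 0.029). Between OV and periotic tissue the difference was 0.07 with a 95% interval from -0.27 to 0.41 (*q* = 0.90). OV replicate 3 stood above the other OV arrays, and without it the difference of OV from embryo-minus-otic was 0.44 (*q* = 0.011) and that from periotic tissue was -0.18. The call of periotic tissue against embryo-minus-otic was lost in 6 of 17 alternatives: with a neqc background correction (*q* = 0.0999), without any single periotic array (*q* = 0.114, 0.060 and 0.082 without replicates 1, 2 and 3) and without embryo-minus-otic replicate 2 (*q* = 0.068) or 3 (*q* = 0.092).

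*Notch3*, a receptor known from vascular smooth muscle and neural progenitors, did not pass the test in any comparison. Its signal was 8.56, 8.64 and 8.68 in OV, 8.66, 8.76 and 8.65 on the periotic arrays and 8.45, 7.94 and 8.45 in embryo-minus-otic. The lowest array was embryo-minus-otic replicate 2, and all OV and periotic arrays lay above all 3 embryo-minus-otic arrays. The difference from embryo-minus-otic was 0.34 for OV (*q* = 0.085) and 0.41 for periotic tissue (*q* = 0.063). Under median normalization both passed, at 0.52 (*q* = 0.012) and 0.64 (*q* = 0.0063), and they also passed without embryo-minus-otic replicate 1 (*q* = 0.049 and 0.043) or replicate 3 (*q* = 0.0497 and 0.041).

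*Notch4* encodes a receptor best known from endothelium. Its brighter probe gave 7.71, 7.94 and 7.73 in OV, 9.12, 9.49 and 9.06 on the periotic arrays and 9.02, 9.11 and 8.95 in embryo-minus-otic. The group means were 7.79 ± 0.13, 9.22 ± 0.23 and 9.03 ± 0.08 (SD, n = 3). The OV arrays lay more than a log2 unit below all the others, which overlapped with each other. OV was 2.69-fold lower than periotic tissue (-1.43, SE 0.11, *q* = 2.45e-07) and 2.35-fold lower than embryo-minus-otic (-1.23, *q* = 1.44e-06), and both calls held in all 17 alternatives. Periotic tissue and embryo-minus-otic differed by 0.20 (*q* = 0.45). In bulk tissue, fewer cells of a type and less RNA per cell cannot be told apart. The dimmer *Notch4* probe was above background on 1 of 9 arrays, a periotic one. Its means were 5.75 in OV and 6.16 in periotic tissue (*q* = 0.020), and this call was lost under median normalization (*q* = 0.066), without normalization (*q* = 0.379) and without OV replicate 1 or 2 or periotic replicate 1 or 2 (*q* from 0.061 to 0.114).

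The 12 endothelial marker genes were on 19 probes. Of these, 8 were lower in OV than in periotic tissue (42.1%, against 5.15% of all probes). In OV against embryo-minus-otic 9 were lower (47.4%, against 5.51%), and 0 were higher in OV in either comparison. Their summed intensity was 2846 to 3603 on the OV arrays, 4449 to 4795 on the periotic arrays and 4622 to 5333 on the embryo-minus-otic arrays. The OV arrays were the lowest for this list, as they were for *Notch4*. In OV 10 of the 19 endothelial probes were above background on all 3 arrays and 6 on none. On each OV array 43.9% to 46.1% of all probes were above background, so this count says little about the list. *Emcn*, a sialomucin of vessels, had means of 8.44 in OV, 9.17 in periotic tissue and 9.42 in embryo-minus-otic (*q* = 0.0035 and 2.69e-04 for OV against each). Of the 19 probes, 11 were not called between OV and periotic tissue. Among these were *Cdh5* (-0.18, *q* = 0.49) and *Tek* (-0.23, *q* = 0.30), so not every detected probe of the list was called lower in OV. *Kdr* (0.02, *q* = 0.97) was above background on 1 OV array and 0 periotic arrays and gives no order of these tissues. Some others of the 11, such as a *Flt1* probe, were above background on no array. The median log2 difference of the list was -0.35. Between periotic tissue and embryo-minus-otic no endothelial probe was called. The part of endothelial content in the *Notch4* difference was not tested. The 11 mural cell probes, for the contractile cells around vessels, held 0 calls between OV and periotic tissue. Against embryo-minus-otic 3 were lower in OV and 3 in periotic tissue (27.3% each, against 5.51% and 2.95% of all probes). In each case the 3 were the probes of *Acta2*, so the share describes that gene and not the list. *Pdgfrb*, above background on all arrays, had means of 6.65 in OV, 6.56 in periotic tissue and 6.66 in embryo-minus-otic.

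*Notch2* was near the lower limit in every tissue. Its probes were above background on 1 and 0 of the 9 arrays, and neither was called in any comparison. At this signal no difference was detectable, and the values give no order of the tissues.

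*Jag1*, on chromosome 2, encodes a Jagged ligand found in the prosensory patches of the ear. Its signal was 9.48, 9.38 and 8.62 in OV, 8.07, 7.72 and 8.15 on the periotic arrays and 8.11, 7.56 and 7.73 in embryo-minus-otic. The group means were 9.16 ± 0.47, 7.98 ± 0.23 and 7.80 ± 0.28 (SD, n = 3). All OV arrays were above all the others, although OV replicate 3 was lower than the other OV arrays. OV was 2.27-fold higher than periotic tissue (1.18, SE 0.19, 95% interval 0.77 to 1.59, *q* = 5.39e-04) and 2.56-fold higher than embryo-minus-otic (1.36, *q* = 1.46e-04). Periotic tissue and embryo-minus-otic differed by 0.18 (*q* = 0.77). Both OV calls held in all 17 alternatives. OV replicate 3, the lowest OV array for *Jag1* and the highest for *Notch1*, also had the lowest summed intensity of otic neuroblast markers, at 1276. This linear sum depends most on the brightest probe, *Isl1*, at 9.76, 9.76 and 8.93 on OV replicates 1, 2 and 3. *Neurod1* moved less, at 8.60, 8.73 and 8.38. The part of this in the *Jag1* or *Notch1* value was not tested.

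*Jag2*, on chromosome 12, encodes the other Jagged ligand. It was above background on 2 of 9 arrays, both periotic, and was not called in any comparison. Its means were 5.90 in OV, 6.19 in periotic tissue and 6.17 in embryo-minus-otic. OV replicate 1 was the highest OV array at 6.15, and without it OV was lower than periotic tissue (*q* = 0.013) and embryo-minus-otic (*q* = 0.016), at levels that were not above background.

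*Dll1*, on chromosome 17, encodes the Delta-like ligand of neuroblasts, neural tube and somites. Its signal was 7.02, 6.82 and 7.24 in OV, 7.77, 7.96 and 7.84 on the periotic arrays and 7.34, 6.93 and 6.95 in embryo-minus-otic. The periotic arrays were the highest 3, and OV and embryo-minus-otic arrays overlapped. OV was 1.78-fold lower than periotic tissue (-0.83, *q* = 2.43e-04), and periotic tissue was 1.72-fold higher than embryo-minus-otic (0.78, *q* = 8.72e-04). OV and embryo-minus-otic differed by -0.05 (*q* = 0.89), a difference whose sign turned in 3 alternatives.

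*Dll3* encodes a divergent Delta-like protein that acts inside the cell on Notch rather than as an activating ligand. Its signal was 6.24, 6.28 and 6.25 in OV, 7.44, 8.08 and 7.90 on the periotic arrays and 7.14, 7.16 and 6.99 in embryo-minus-otic. The group means were 6.26 ± 0.02, 7.81 ± 0.33 and 7.10 ± 0.09 (SD, n = 3). The 3 groups did not overlap, and the OV arrays were barely above background. OV was 2.93-fold lower than periotic tissue (-1.55, SE 0.13, *q* = 4.17e-07) and 1.79-fold lower than embryo-minus-otic (-0.84, *q* = 2.78e-04). Periotic tissue was 1.63-fold higher than embryo-minus-otic (0.71, *q* = 0.0026). With a neqc background correction the differences of OV were larger, at -2.32 from periotic tissue and -1.40 from embryo-minus-otic.

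*Dll4*, a ligand of endothelial tip cells, was above background on 0 of 9 arrays and was not called. Its means were 5.78 in OV, 5.82 in periotic tissue and 6.05 in embryo-minus-otic, all of them at a level without a measured order.

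**Figure D2:**
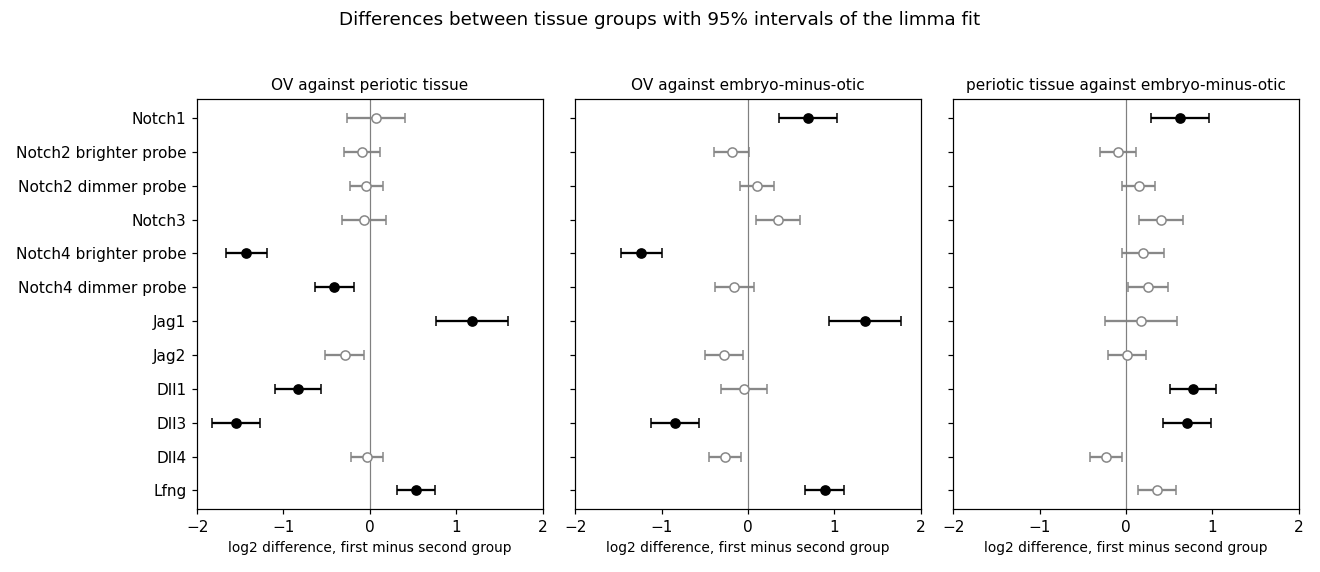
Log2 difference (x axis) of each member probe in OV against periotic tissue, OV against embryo-minus-otic and periotic tissue against embryo-minus-otic, with 95% intervals from limma. Filled points have *q* under 0.05. *Jag1* lies at 1.18 and 1.36 in the comparisons of OV, and *Dll3* at -1.55 and -0.84.

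Neural tube markers followed the same order of tissues as *Dll3*. The 12 probes of 11 neural tube genes had summed intensities of 779 to 852 in OV, 4629 to 5394 in periotic tissue and 1879 to 2250 in embryo-minus-otic. In OV 10 of the 12 probes were above background on no array, including those of the proneural gene *Neurog2*. Among the 10, *Sox1* and *Pax6* were above background on no array of any tissue. On each OV array 43.9% to 46.1% of all probes were above background, so this count alone does not show absence from OV. Of the 12, 9 were lower in OV than in periotic tissue (75%, against 5.15% of all probes). In periotic tissue 6 were higher than in embryo-minus-otic (50%, against 2.86%). Somite and presomitic mesoderm markers did not follow *Dll1* and *Dll3* between the last pair of tissues, with sums of 512 to 553 in periotic tissue and 1471 to 1560 in embryo-minus-otic. Of the 8 somite probes, 1 was lower in OV than in periotic tissue (12.5%, against 5.15% of all probes). In periotic tissue 4 were lower than in embryo-minus-otic (50%, against 2.95%), the direction opposite to *Dll1* and *Dll3*. In OV 4 were lower than in embryo-minus-otic (50%, against 5.51%). The part of neural tissue in the *Dll1* and *Dll3* differences was not tested.

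*Lfng* encodes a sugar transferase of the Golgi that modifies Notch. Its signal was 6.79, 6.65 and 6.56 in OV, 6.26, 6.19 and 5.95 on the periotic arrays and 5.64, 5.85 and 5.84 in embryo-minus-otic. All OV arrays, 1 periotic array and 0 embryo-minus-otic arrays had it above background, and the groups did not overlap. OV was 1.44-fold higher than periotic tissue (0.53, *q* = 0.0026), a call lost without normalization between arrays (*q* = 0.080). Against embryo-minus-otic the measured difference was 0.89 (*q* = 1.83e-05), which is at least 1.36-fold when each embryo-minus-otic array is set no lower than its lowest signal above background. Periotic tissue and embryo-minus-otic differed by 0.36 (*q* = 0.060), which passed with array weights (*q* = 0.047) and without periotic replicate 3 (*q* = 0.024). With a neqc background correction the differences of OV were larger, at 1.00 and 1.58. The other fringe and Notch-glycosylating enzymes (*Mfng*, *Rfng*, *Pofut1* and *Poglut1*, listed as *9630046K23Rik*) had 7 probes, of which 0 were called in either comparison of OV. In periotic tissue 2 were higher than in embryo-minus-otic (28.6%, against 2.86% of all probes). Both were *Mfng*, with log2 differences of 0.57 (*q* = 0.0025) and 0.36 (*q* = 0.045).

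RBPJ, the DNA-binding partner of Notch, reads a motif whose core is TGGGAA. The RefSeq promoter windows of GRCm38.p6, taken over the 250 bases before each start site, were searched for this core on both strands. It was found in 7094 of 32851 windows (21.6%), and the longer form GTGGGAA, which contains it, in 1779 (5.42%). Of the 11 windows of the 10 member genes, 1 held the core, that of *Lfng*. Its 2 matches began 135 bases before the start site (opposite strand) and 108 bases before it (gene strand), and 1 of them was the longer form. The windows of the members called higher in OV against both other tissues are shown for comparison, *Lfng* at chr5:140607091-140607340 on the plus strand and *Jag1*, which held no match, at chr2:137116521-137116770 on the minus strand. They are written in the direction of the gene and capitals mark the core on either strand. A match describes these letters only and is not evidence of binding.

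Lfng: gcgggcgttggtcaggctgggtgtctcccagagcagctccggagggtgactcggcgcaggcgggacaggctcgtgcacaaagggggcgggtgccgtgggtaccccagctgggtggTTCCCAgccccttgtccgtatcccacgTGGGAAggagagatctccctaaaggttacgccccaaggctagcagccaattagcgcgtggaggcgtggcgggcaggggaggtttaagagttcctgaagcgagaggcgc

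Jag1: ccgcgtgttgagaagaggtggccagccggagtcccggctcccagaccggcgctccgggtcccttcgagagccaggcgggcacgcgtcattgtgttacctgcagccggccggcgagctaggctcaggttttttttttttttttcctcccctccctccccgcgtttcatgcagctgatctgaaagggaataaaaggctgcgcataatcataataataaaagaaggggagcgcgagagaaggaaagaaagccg

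Genes that Notch is known to switch on included the largest difference of all pathway probes between OV and periotic tissue, that of *Hes5*. The target list (*Hes1*, *Hes5*, *Hes7*, *Hey1*, *Hey2*, *Heyl* and *Nrarp*) had 9 probes. *Hes5* and *Hey2* had 2 of these probes each. In OV against periotic tissue 3 were higher and 3 lower (33.3% each, against 5.07% and 5.15% of all probes). In OV against embryo-minus-otic 3 were higher and 2 lower (33.3% and 22.2%, against 5.89% and 5.51%). In periotic tissue against embryo-minus-otic 3 were higher (33.3%, against 2.86%) and 1 lower (11.1%, against 2.95%), *Hes1* (-0.34, *q* = 0.044).

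*Hes5*, on chromosome 4, encodes a repressor that holds back neuronal differentiation. Its brighter probe gave 6.41, 6.17 and 6.30 in OV, where 2 of 3 arrays were above background, 10.41, 10.90 and 10.39 on the periotic arrays and 9.35, 9.29 and 8.75 in embryo-minus-otic. The groups were in the same order as for *Dll3* and the neural tube markers, with OV lowest. OV was 19.3-fold lower than periotic tissue (*q* = 5.70e-11) and 7.15-fold lower than embryo-minus-otic (*q* = 5.13e-09), and the other probe, above background on 1 OV array, was 16.2-fold and 6.08-fold lower. The promoter window of *Hes5* (chr4:154960673-154960922, plus strand) held 2 matches to the RBPJ core, 226 bases (opposite strand) and 82 bases (gene strand) before the start, both in the longer form, with capitals as above. Of the other targets searched, *Hey2* held 1 match, 207 bases before the start on the opposite strand and in the longer form, and *Nrarp* held none.

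Hes5: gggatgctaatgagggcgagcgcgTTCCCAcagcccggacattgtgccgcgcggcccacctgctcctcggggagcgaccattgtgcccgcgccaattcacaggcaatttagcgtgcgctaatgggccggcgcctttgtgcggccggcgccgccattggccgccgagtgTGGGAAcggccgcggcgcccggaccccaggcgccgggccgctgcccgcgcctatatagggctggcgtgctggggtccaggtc

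*Hey1*, a repressor of the hairy-related family, moved the other way. Its signal was 10.75, 11.09 and 10.82 in OV, 9.99, 10.14 and 10.10 on the periotic arrays and 9.76, 9.85 and 10.03 in embryo-minus-otic. OV was 1.75-fold higher than periotic tissue (*q* = 5.67e-05) and 2.01-fold higher than embryo-minus-otic (*q* = 6.03e-06), as it was for *Jag1* and *Lfng*. A *Hey2* probe was higher in OV than in the periotic group by 0.59 on the log2 scale (*q* = 8.14e-04). *Nrarp*, a feedback inhibitor of Notch, was 1.77-fold lower in OV than in periotic tissue (*q* = 7.80e-05) and 2.61-fold higher in periotic tissue than in embryo-minus-otic (*q* = 7.78e-07), the order of tissues seen for *Dll1*, except that *Nrarp* was also higher in OV than in embryo-minus-otic (*q* = 0.0030).

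**Figure D3:**
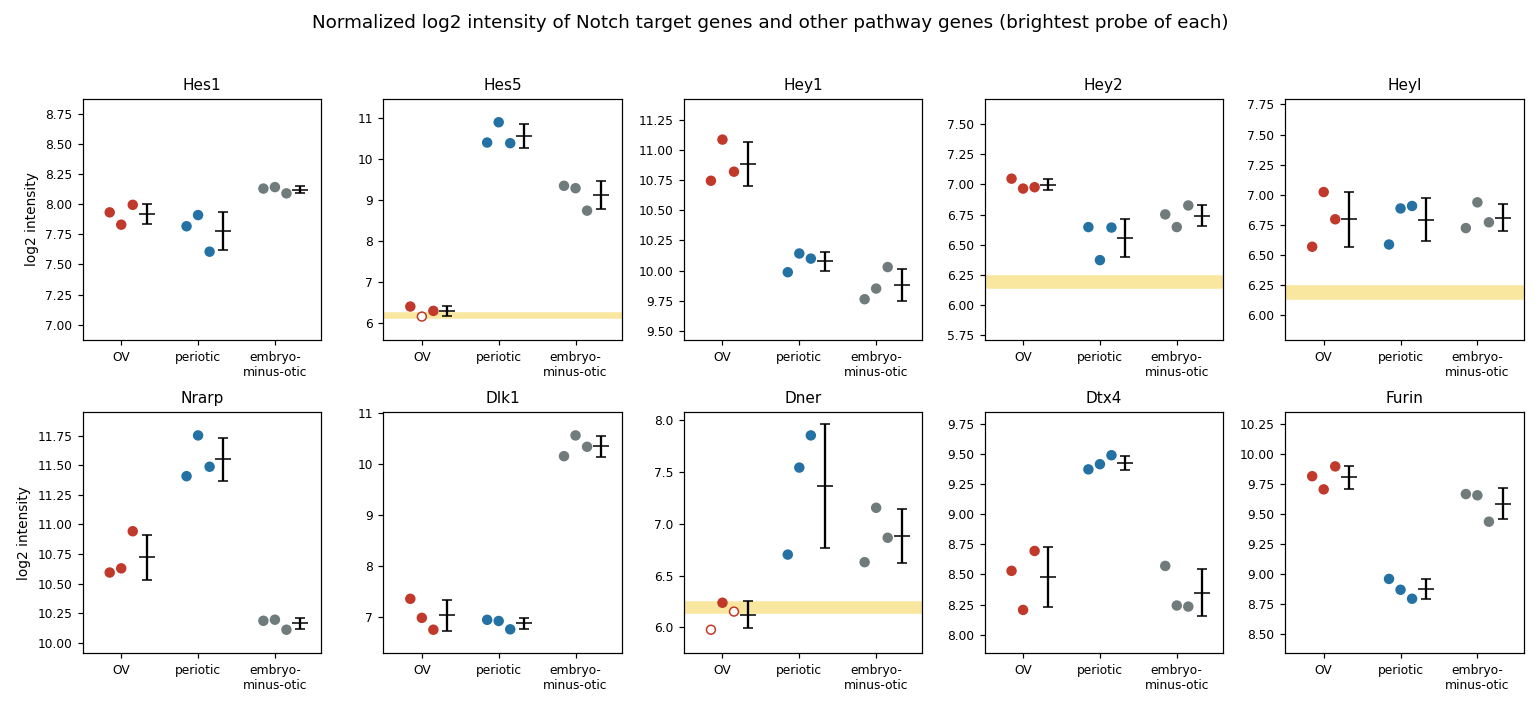
Normalized log2 intensity (y axis) of pathway probes on the 9 arrays, by tissue, with group means and SD. Each gene is shown by its brightest probe, and filled and open points and the yellow band mark background as in the plot of the member probes. *Hes5* lies near background in OV and highest in periotic tissue, and *Hey1* is highest in OV.

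The wider pathway was described by lists of its enzymes, cofactors and targets. Of 51 listed genes outside the members, 46 were on the array, on 69 probes, of which 10 were higher and 6 lower in OV than in periotic tissue (14.5% and 8.70%, against 5.07% and 5.15% of all probes), 7 higher and 5 lower in OV than in embryo-minus-otic (10.1% and 7.25%, against 5.89% and 5.51%), and 7 higher and 3 lower in periotic tissue than in embryo-minus-otic (10.1% and 4.35%, against 2.86% and 2.95%). Of the 69, 45 were above background on every array of 1 tissue or more. Among the 11849 array probes that were so, the shares were larger than over all probes, at 10.4% and 10.6%, 12.1% and 11.1%, and 6.08% and 6.05%. The shares of lower pathway probes in the comparisons with embryo-minus-otic were close to those of all probes. A count of 1 or 2 probes in a list below says nothing about that list. Of the cleavage list, 3 of 15 probes were higher in OV than in periotic tissue (20%, against 5.07% of all probes), and 2 of these were for *Furin*. In OV 1 was higher than in embryo-minus-otic (6.67%, against 5.89%), and in periotic tissue 1 was lower than in embryo-minus-otic (6.67%, against 2.95%). *Furin*, the protease that matures the receptor, was 1.90-fold higher in OV than in the periotic group (*q* = 4.13e-06) and 1.64-fold lower in periotic tissue than in embryo-minus-otic (*q* = 1.49e-04).

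Of the 13 probes of the nuclear complex list, 3 were higher in OV than in periotic tissue (23.1%, against 5.07% of all probes). In OV 2 were higher than in embryo-minus-otic (15.4%, against 5.89%), and 0 were called between the other tissues. *Hdac1*, a corepressor subunit, was higher in OV than in embryo-minus-otic by 0.59 on the log2 scale (*q* = 0.019). The 3 probes of the RBPJ gene, listed under its older symbol *Rbpsuh*, were above background on 0 arrays. Of 20 probes for endocytosis and ubiquitination, 2 were lower in OV than in periotic tissue (10%, against 5.15% of all probes). In OV 1 was lower than in embryo-minus-otic (5%, against 5.51%), and in periotic tissue 2 were higher than in embryo-minus-otic (10%, against 2.86%). The 2 called in each comparison with periotic tissue were the probes of a single gene, *Dtx4*. The 2 *Dtx4* probes, for a Deltex ubiquitin ligase, were 1.93-fold and 1.82-fold lower in OV than in periotic tissue (*q* = 5.51e-05 and 7.13e-04) and 2.11-fold and 2.15-fold higher in periotic tissue than in embryo-minus-otic (*q* = 3.44e-05 and 1.51e-04).

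Among the 5 non-canonical ligand probes, 1 was higher and 1 lower in OV than in periotic tissue (20% each, against 5.07% and 5.15% of all probes). In OV 1 was higher and 2 lower than in embryo-minus-otic (20% and 40%, against 5.89% and 5.51%). In periotic tissue 1 was lower than in embryo-minus-otic (20%, against 2.95%). *Dlk1*, a Delta-like protein of fetal tissue and an imprinted gene, was 9.97-fold lower in OV (*q* = 3.86e-10) and 11.1-fold lower in periotic tissue (*q* = 5.83e-10) than in embryo-minus-otic. *Dner*, a neuronal EGF-repeat protein, was above background on 1 OV array and was 2.37-fold lower in OV than in periotic tissue (*q* = 8.20e-04) and 1.70-fold lower than in embryo-minus-otic (*q* = 0.030).

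Marker lists were used to check the labelled tissues. Of 14 otic epithelium probes, 12 were higher in OV than in each other tissue (85.7%, against 5.07% and 5.89% of all probes). The summed intensity of the 14 was 7835 to 8544 in OV, 1188 to 1324 in periotic tissue and 1384 to 1454 in embryo-minus-otic. The otic neuroblast list did not move one way, with sums of 1276 to 1769, 1631 to 1761 and 1544 to 1829. Within it *Neurod1*, a proneural factor of otic neuroblasts, had a mean of 8.57 in OV against 6.76 in periotic tissue (*q* = 2.94e-08), while *Neurod4* had a mean of 6.06 in OV against 8.55 (*q* = 1.74e-10). The mesenchyme list (12 probes) had sums of 1796 to 1976 in OV, 2022 to 2446 in periotic tissue and 3774 to 4545 in embryo-minus-otic. Of its probes 2 were lower in OV than in periotic tissue (16.7%, against 5.15% of all probes). Against embryo-minus-otic 11 were lower in OV (91.7%, against 5.51%) and 10 in periotic tissue (83.3%, against 2.95%). The periotic arrays, whose tissue the methods describe as including mesenchyme, were thus closer to OV than to embryo-minus-otic for this list, while the neural tube list was highest in them. The part of such differences in tissue makeup in the values of the members was not tested.

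**Figure D4:**
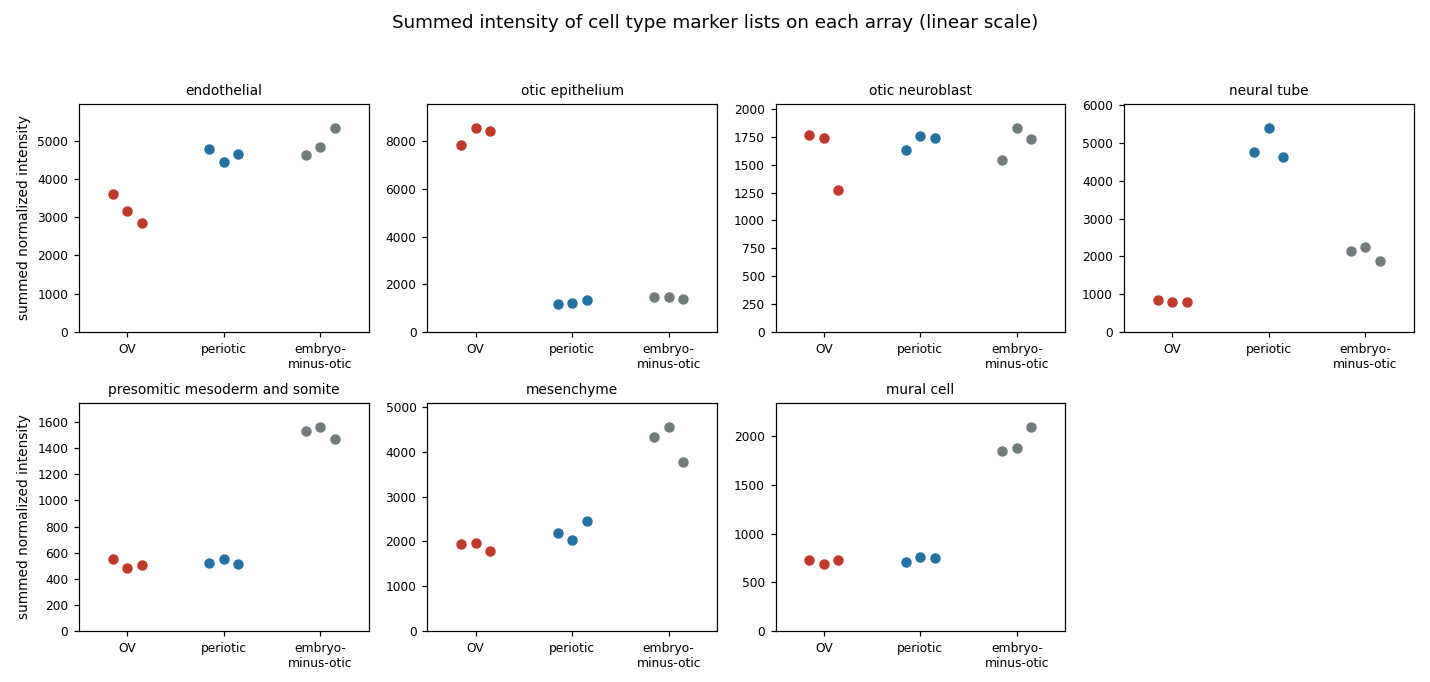
Summed linear intensity (y axis) of each marker list on the 9 arrays, by tissue, with the y axis from 0. The endothelial sum is lowest in OV, the neural tube sum is highest in periotic tissue, and the otic epithelium sum is highest in OV.

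For the 3 member probes whose group means were furthest apart, the most similar probes of other genes were found by Pearson correlation over the 9 arrays among 11842 probes. For *Dll3* they were *Smpd3* (r = 0.99), *Dusp8* (0.99) and *Plk3* (0.99), and for *Notch4* *Tspan17* (0.99), *2310043K02Rik* (0.99) and *Rtn2* (0.99). For *Jag1* they were *Slc19a2* (r = 0.98), *Ppp2r2b* (0.96) and *Gyltl1b* (0.96). The arrays fall into 3 tissues, so these values mostly restate the order of the group means and carry no test.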

How the data were processed

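RNA from the 9 pools was measured on 1-colour Illumina MouseRef-8 arrays. The authors deposited each probe's average signal from GenomeStudio as an intensity without normalization between arrays, and whether a background was subtracted is not given in the sources used here. They also deposited detection p-values, which rank a probe against the negative controls of its array. All 18 columns of sample values were assigned to samples by their labels, and 0 were left unused. After raising values under 1 to 1, signals were put on the log2 scale, quantile normalized, and fitted for all 25697 probes with limma 3.58.1 in R 4.3.3 as a model of the 3 groups, with Benjamini-Hochberg adjustment within each comparison. The steps were tested on simulated data. Where no array of a group was above background at a detection p of 0.01, a fold is a lower bound: the dim group's mean was then taken after raising each array's value, where it was lower, to that array's lowest signal above background.

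The members, gene lists and tests were chosen with earlier results of these data known. Named were all member probes, pathway probes called at 1.5-fold or more and defining markers. A few pathway and marker genes outside this rule (*Mfng*, *Hes1* and *Nrarp* against embryo-minus-otic, *Rbpsuh*) were named after their values were seen. Not every gene under this rule is reported here. Gene symbols are the array's own, with older names matched through RefSeq synonyms, and of 51 pathway genes 46 were found. Promoter windows are RefSeq's on GRCm38.p6. The settings tried besides were neqc (offset 16), median normalization or none, a filter on background, a fit without the third tissue, a block for the replicate number, array weights, an intensity trend, a detection p of 0.05 and each array left out. The slide of each array was not analysed here. Intensities give no read depth, and the number of arrays limits the precision.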

Additional observations from a re-analysis of the deposited data

How the results depend on the processing

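Over 17 alternatives, the calls of *Jag1*, *Notch4* (brighter probe), *Dll1* and *Dll3*, of *Lfng* in OV against embryo-minus-otic and of *Notch1* in OV against embryo-minus-otic were kept with their direction. Calls lost were those of *Notch1* between periotic tissue and embryo-minus-otic, of the dimmer *Notch4* probe and of *Lfng* in OV against periotic tissue. *Dll4*, above background on no array, passed in OV against embryo-minus-otic with neqc (*q* = 0.037) and with an intensity trend (*q* = 0.049). The number of member probes called, 6, 5 and 3 in OV against periotic tissue, OV against embryo-minus-otic and periotic tissue against embryo-minus-otic, ranged from 5 to 6, from 5 to 6 and from 2 to 4 with each array left out. That of pathway probes, 16, 12 and 10, ranged from 14 to 17, from 8 to 13 and from 8 to 9. Without normalization it was 9 in OV against periotic tissue and 7 in OV against embryo-minus-otic. Over all probes, calls were 1381, 1383 and 696 without normalization, beside 2625, 2930 and 1493, and under median normalization 1684, 2142 and 1127, where the share called higher in the comparisons with embryo-minus-otic was 68.7% for OV and 72.0% for periotic tissue. These shares were 51.6% and 49.3% with quantile normalization and 42.5% and 46.7% without normalization. The cause was not tested.

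Differences that changed sign were all below the threshold before and after. *Dll1* in OV against embryo-minus-otic was 0.055 under median normalization and ranged from -0.154 to 0.089 with each array left out. *Notch1* in OV against periotic tissue was -0.012 with array weights and ranged from -0.184 to 0.221, with the lowest value without OV replicate 3. *Jag2* in periotic tissue against embryo-minus-otic was -0.114 without normalization and ranged from -0.011 to 0.033. The brighter *Notch2* probe ranged from -0.148 to 0.0090 in that comparison. The dimmer one was -0.020 in OV against embryo-minus-otic without normalization and ranged from -0.125 to 0.011 in OV against periotic tissue.

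Arrays of the same replicate number deviated from their group means with correlations from 0.0108 to 0.234, of which 5 of 9 were over 0.1, and those of different numbers from -0.192 to 0.0637, of which 0 of 18 were. The methods name 3 litters, but the labels do not tie a number to a litter, not every same-number pair was over 0.1, and OV replicate 3 correlated better with embryo-minus-otic replicate 1 (0.0637) than with replicate 3 (0.0108). The numbers were therefore not taken as pairs, and a shared litter was not tested. With the replicate block, 6, 5 and 3 member probes and 17, 14 and 8 pathway probes were called. At a detection p of 0.05, *Jag2* was above background on 7 arrays and *Dll4* on 2. The filter on background gave no value for the 5 dim member probes, and the slide as a block was not run.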
